A study of Oryza sativa Japonica Group with 24 samples.

Results

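The step from afternoon into night was examined in anthers of the *japonica* rice variety 9522 under long-day (LD) conditions, by comparing the 2 libraries collected at 20:00 with the 2 collected at 16:00 across the 25498 expressed loci of 55986 counted. These are 4 of the 24 RNA-seq libraries of the series, which sampled anthers at pollen mitosis I every 4 h through a day, with 2 biological replicates at each of 6 time points under LD and under short-day (SD) conditions. All plants were wild type and were grown in paddy fields near Shanghai. LD was natural daylight of about 14 h, whereas SD plants were covered with black cloth over the last 2 h of daylight to give a 12-h photoperiod. The study counted 16:00 as day and 20:00 as night. Clock times are those of the library labels, and for LD they carry a doubt: the total of each LD library follows the mapped reads that the study's sequencing summary lists for the collection 4 h earlier, whereas SD totals follow their own entries. Whether the libraries or the summary are shifted was not settled, so that the interval labelled 16:00 to 20:00 in LD could be that from 12:00 to 16:00. As labelled, *OsCCA1* was highest at 04:00 in LD (928 CPM) and at 08:00 in SD (678 CPM). The light-harvesting gene *OsCAB1R* was highest at 08:00 in LD (524 CPM) and at 12:00 in SD (711 CPM). Its lowest mean was at 00:00 in both, at 2.72 CPM in LD and 5.26 CPM in SD. Samples were whole anthers in both groups, so that fewer cells of a type and less RNA per cell cannot be told apart.

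In plants the circadian clock rests largely on transcriptional repressors that follow each other through the day, from the morning factor CCA1 through the pseudo-response regulators (PRRs), TOC1 among them, to the evening complex with LUX and ELF3. GI is an afternoon protein that forms complexes with F-box proteins such as FKF1. Clock output and light together set the daily rhythm of the nuclear genes for photosynthesis, among them the light-harvesting chlorophyll *a*/*b* binding proteins, whose transcripts are made by day and drop at night. Most of these roles were worked out in *Arabidopsis* leaves and seedlings. Anthers draw sugar from the leaves but keep green wall tissue of their own for part of their development.

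The libraries held 22707617 and 21123595 counts at LD 16:00, and 21100806 and 22238272 at LD 20:00. Levels are TMM-normalized counts scaled to library size (CPM). They are not corrected for gene length and so compare samples and not genes. Across genes, the log2 CPM of replicates correlated at 0.974 at LD 16:00 and 0.987 at LD 20:00, and replicates at least 2-fold apart made up 4.58% and 1.5% of the genes over 10 CPM. Pollen marker transcripts were present in all 4 libraries. The 13 markers, among them pollen allergens and *OsMATL*, summed to 659 and 2136 CPM at 16:00 and to 1475 and 2449 CPM at 20:00, and the time points overlapped. The 3 markers of the tapetum and early anther wall, *OsLAP6*, *OsABCG15*, and *HTH1*, summed to between 0.385 and 10.1 CPM in these libraries. Of these markers, none was called between 16:00 and 20:00 by edgeR or DESeq2 and none had an unadjusted p under 0.05.

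Down-regulation dominated the step into night. Of 25498 loci tested, 95 were differentially expressed genes (DEGs, here an adjusted p under 0.05 and a change of at least 2-fold), or 0.373%. Of these, 90 were lower at 20:00 (0.353% of the loci tested) and 5 were higher (0.0196%). The median log2 fold change of the 90 was -1.72, and 37 of them fell at least 4-fold. The 90 were called as lower from these same libraries, so that separate groups follow in part from the choice. In each, both 20:00 libraries lay under both 16:00 libraries. The lowest 16:00 value was at least 1.46 times the highest 20:00 value. The median over all tested loci was 0.002, and loci with a fitted change of at least 2-fold, called or not, were more often higher (822) than lower (632). The fold change against mean level over all loci shows that the called loci lie mostly at 10 CPM or more, where 74 of the 90 were at 16:00. The number called dropped to 30 without the second LD 20:00 replicate, 43 without the first, 54 without the first LD 16:00 replicate, and 74 without the second. A core of 28 loci, all lower at 20:00, was called in the full data and without each of the 4 libraries, and it held *OsCAB1R*, *OsFKF1*, *OsPRR95*, and *OsPRR73*.

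**Figure D1:**
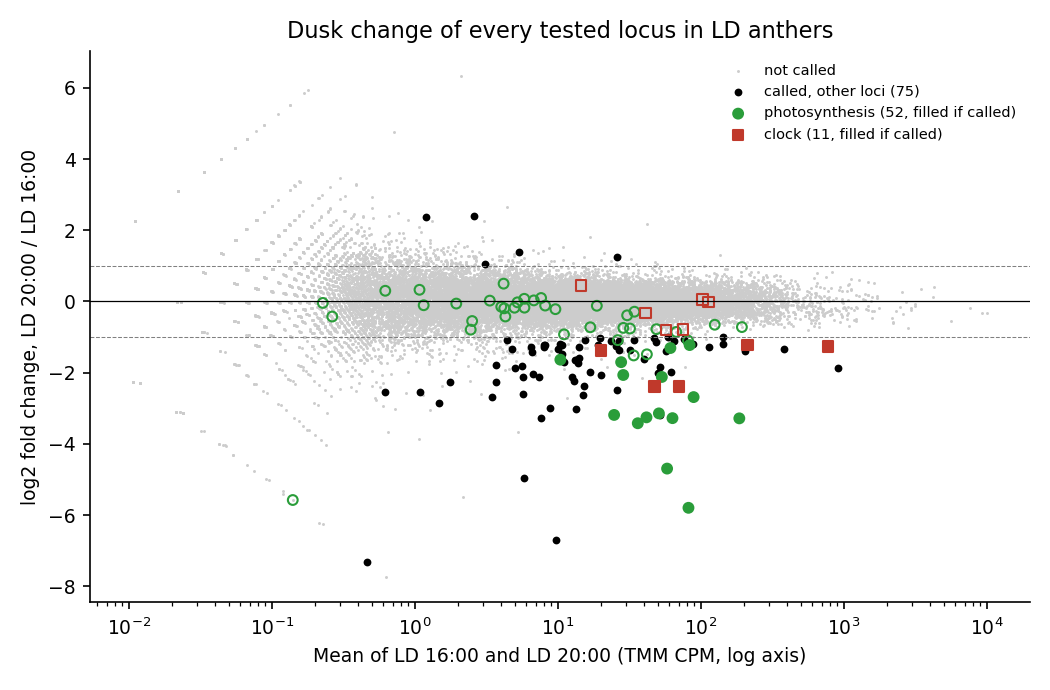
Log2 fold change of LD 20:00 over LD 16:00 (y axis) against the mean CPM of the 4 libraries (x axis, log scale) for each of 25498 loci; black points are called, green circles are 52 photosynthesis loci and red squares 11 clock genes, filled where called, and dashed lines mark 2-fold. Of the 95 called loci, 90 lie below 0.

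Of the gene lists examined here, that for photosynthesis held the most DEGs. Calls were not counted over every annotation term. The study's sheets list 53 loci under the Gene Ontology term photosynthesis, of which 52 were tested, and 15 of these were down-regulated at LD 20:00, none up-regulated. That is 28.8% of the list, beside 0.373% of all loci. The median log2 fold change of the list was -0.74, beside 0.002 over all loci. A negative value was found in 45 of the 52, beside 12636 of all 25498 loci. The study drew its members from loci that differed between SD and LD, and from co-expression modules that correlated with photoperiod. Both came from these same libraries, so that the list is not independent evidence of a direction. Summed over the 52 loci, the level was 3280 and 2016 CPM in the replicates at 16:00, and 1028 and 773 CPM at 20:00.

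*OsCAB1R* (LOC_Os09g17740), which encodes a chlorophyll *a*/*b* binding protein of the light-harvesting antenna, had the deepest fall of any annotated gene at 10 CPM or more. It stood at 202.8 and 119.7 CPM at 16:00 and at 3.43 and 2.36 CPM at 20:00. Both afternoon libraries were far above both evening libraries, although they differed from each other. The log2 fold change was -5.80 ± 0.30 (SE, n = 2 per group), with an adjusted p of 4.07e-08 by edgeR's quasi-likelihood test.

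The other photosynthesis loci carry no gene name in the sources used here, and they fell by less. LOC_Os08g33820 was at 135 and 88.8 CPM at 16:00 and at 4.19 and 4.45 CPM at 20:00, a log2 fold change of -4.70 ± 0.29 (adjusted p = 2.75e-07). LOC_Os01g41710 was at 466 and 209 CPM in the afternoon and at 36.7 and 32.6 CPM in the evening, a log2 fold change of -3.28 ± 0.33 (adjusted p = 5.34e-05). In both loci the afternoon replicates were apart, and the evening replicates were close. LOC_Os07g37550, LOC_Os11g13890, LOC_Os06g21590, LOC_Os02g10390, and LOC_Os03g39610 all had log2 fold changes between -3.42 and -3.14, and LOC_Os07g37240 had -2.69 (adjusted p = 2.24e-04).

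Loci that the sheets also place in the thylakoid, the membrane that carries the photosystems, changed less than the rest of the list. Of the 30 tested loci with both terms, 5 were down-regulated, with a median log2 fold change of -0.60, whereas 10 of the 22 without the thylakoid term were down-regulated, with a median of -1.50. The difference between these parts of the list was not tested. LOC_Os08g40160 stood at 16.2 and 15.4 CPM at 16:00 and at 5.26 and 4.89 CPM at 20:00, with almost no spread between replicates (log2 fold change -1.64 ± 0.19, adjusted p = 2.40e-04). LOC_Os07g05360 fell by 2.07, LOC_Os08g44680 by 1.31, and LOC_Os07g25430 by 1.23 on the log2 scale. Each of these last 3 lost its call without at least one of the libraries, and for LOC_Os08g44680 the value was -0.95 without the first LD 16:00 replicate. One further thylakoid locus, LOC_Os03g56670, not listed under photosynthesis and named here after its values were seen, also fell (log2 fold change -1.12).

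The replicates differed in a way that ran through this group. At 16:00 all 15 down-regulated photosynthesis loci, and 40 of the 52 tested, were higher in replicate 1 than in replicate 2, and at 20:00 42 of the 52 were. Pollen markers ran the other way, with the higher sum in replicate 2 at both times. With the replicate number as a block in the fit, 15 loci of the list were called. The labels do not say that a number marks a shared batch, and the part of this difference in the result was not otherwise tested. In the 15 down-regulated loci, which were called from these libraries without a block, the lowest 16:00 value was between 1.68 and 34.9 times the highest 20:00 value. Of the list, 11 and 17 loci were called without the first and second LD 16:00 replicate, 13 and 10 without the first and second LD 20:00 replicate, and 0 in a fit of only the 4 libraries compared.

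**Figure D2:**
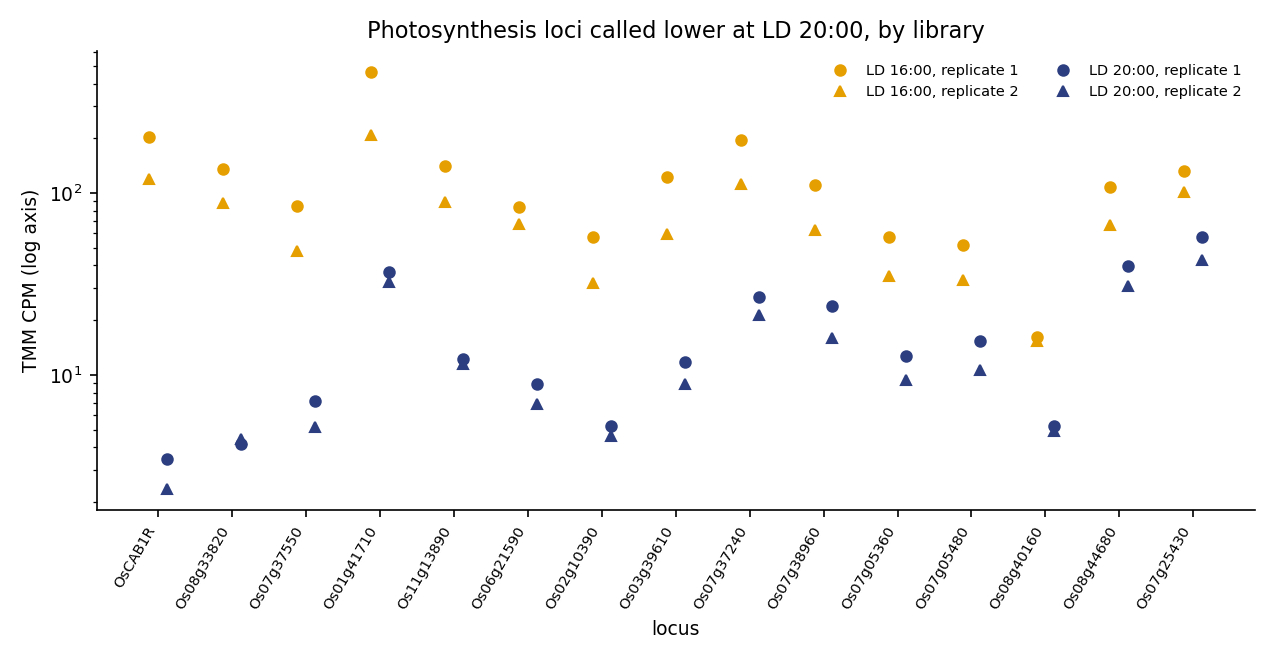
CPM (y axis, log scale) of the 15 photosynthesis loci called lower at LD 20:00, ordered by fold change; orange marks are LD 16:00 and blue marks LD 20:00 libraries, circles replicate 1 and triangles replicate 2. Every orange mark is above both blue marks of its locus, by at least 1.68 times.

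The other time points place the fall within the day. In LD, 14 of the 15 loci peaked at 08:00, 12 were lowest at 00:00, and 3 were lowest at 20:00. *OsCAB1R* averaged 524 CPM at 08:00, 273 at 12:00, 161 at 16:00, 2.89 at 20:00, 2.72 at 00:00, and 47.5 at 04:00 in LD. Its level was thus already lower at 16:00 than in the morning, was lowest at 20:00 and 00:00, and was higher again at 04:00. The summed list followed the same course, from 5100 and 6257 CPM at 08:00 to 1069 and 1030 CPM at 00:00 and 2657 and 2089 CPM at 04:00.

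**Figure D3:**
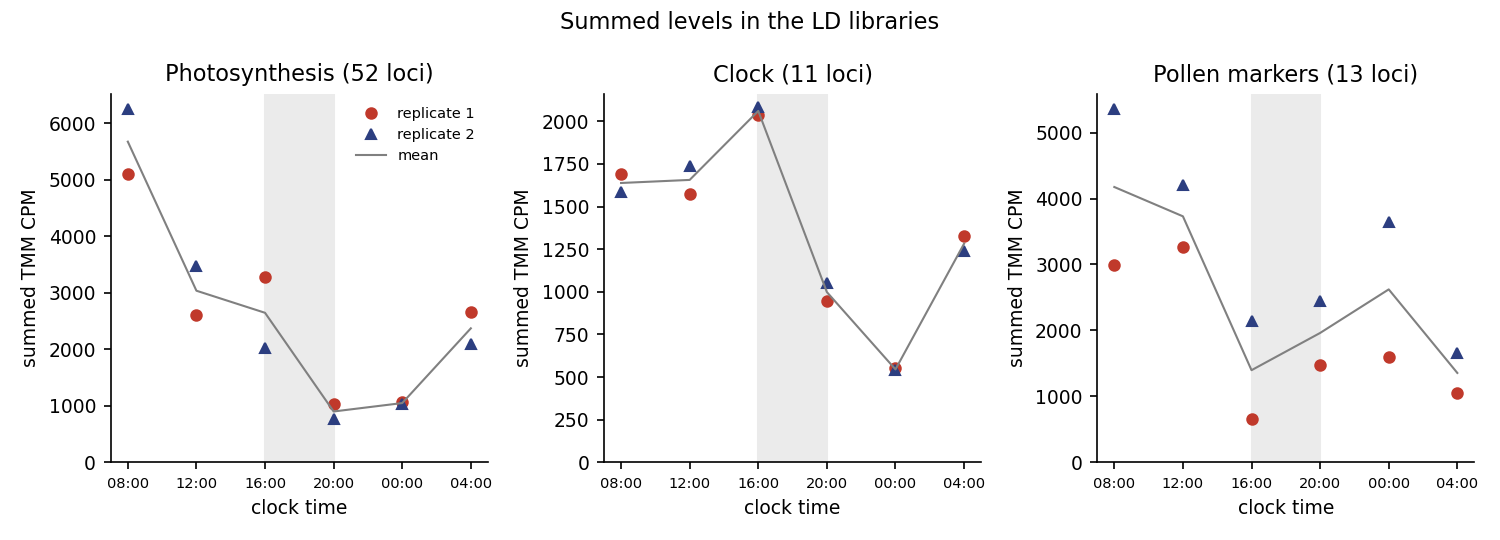
Summed CPM (y axis) of the 52 photosynthesis loci, the 11 clock genes, and the 13 pollen markers in the 12 LD libraries by clock time (x axis); circles and triangles are the 2 replicates, the grey line their mean, and the shaded band the interval from 16:00 to 20:00. The photosynthesis and clock sums are lower in both 20:00 libraries than in both 16:00 libraries, and the pollen sums overlap.

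Several clock genes that peak in the afternoon fell in the same interval. Of 11 clock genes tested, 5 were down-regulated at 20:00 and none up-regulated, that is 45.5%, beside 0.373% of all loci. Their median log2 fold change was -0.80. The list holds the clock genes that the study names, and earlier results of these libraries were known when it was taken. The sums of the replicates lay closer together in this group than in the photosynthesis loci. The 11 genes summed to 2036 and 2086 CPM at 16:00 and to 946 and 1051 CPM at 20:00. *OsGI* made up the largest part of these sums (1088 and 1104 CPM at 16:00), so that they do not show the agreement of each gene.

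*OsFKF1* (LOC_Os11g34460) encodes a blue-light receptor and F-box protein that in *Arabidopsis* acts with GI in day-length sensing. It was at 119 and 117 CPM at 16:00 and at 22.9 and 22.1 CPM at 20:00, and its log2 fold change was -2.39 ± 0.23 (adjusted p = 2.76e-05). The pseudo-response regulator gene *OsPRR95* (LOC_Os09g36220) was at 84.2 and 74.8 CPM and then at 15.1 and 15.3 CPM, with a log2 fold change of -2.39 ± 0.17 (adjusted p = 1.15e-06). In both genes the groups lay far apart, and replicates were close. *OsPRR73* (LOC_Os03g17570), another pseudo-response regulator, was at 292 and 304 CPM and then at 121 and 134 CPM (log2 fold change -1.23 ± 0.14, adjusted p = 1.69e-04).

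*OsGI* (LOC_Os01g08700), the rice *GIGANTEA* gene that links the clock to flowering time, was at 1088 and 1104 CPM at 16:00 and at 430 and 482 CPM at 20:00, with a log2 fold change of -1.27 ± 0.21 (adjusted p = 0.00911). *OsLUX* (LOC_Os01g74020), a DNA-binding factor of the evening complex, was at 27.5 and 30.3 CPM and then at 11.1 and 11.3 CPM, with a log2 fold change of -1.37 ± 0.29 (adjusted p = 0.0435). The libraries of each group were close together in both genes. The call for *OsGI* was lost without either LD 20:00 library (adjusted p = 0.141 and 0.111), and that for *OsLUX* without any one of the 4 libraries (adjusted p from 0.158 to 0.440).

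The other 6 clock genes did not pass the test. *OsTOC1* (LOC_Os02g40510), the evening repressor, was at 67.8 and 77.7 CPM at 16:00 and at 38.3 and 45.1 CPM at 20:00 (log2 fold change -0.80, adjusted p = 0.0755). *OsPRR37* (LOC_Os07g49460), a repressor of flowering in long days in rice, was at 103 and 87.6 CPM and then at 57.3 and 53.2 CPM (log2 fold change -0.79, adjusted p = 0.116). In both, the 20:00 libraries lay below the 16:00 libraries without overlap. *OsCCA1* (LOC_Os08g06110), the morning repressor, was at its lowest LD mean of the day at 16:00. Its libraries were at 9.28 and 15.2 CPM and then at 11.8 and 21.7 CPM (log2 fold change 0.45, adjusted p = 0.569). *OsELF3* (LOC_Os06g05060), the scaffold of the evening complex, and the F-box genes *OsZTL1* and *OsZTL2*, whose *Arabidopsis* counterpart degrades TOC1, had log2 fold changes of -0.32, 0.05, and -0.01.

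The full day shows where each gene stood when the 16:00 samples were taken. *OsFKF1*, *OsPRR95*, *OsLUX*, and *OsGI* had their highest LD mean at 16:00, and *OsPRR73* at 12:00. All were called as lower at 20:00 than at 16:00, which favours a peak at 16:00. *OsLUX* averaged 1.98 CPM at 12:00, 28.9 at 16:00, 11.2 at 20:00, and 4.04 at 00:00. *OsGI* averaged 660, 1096, 456, and 77.6 CPM at these times. *OsCCA1* averaged 928 CPM at 04:00 and 791 at 08:00.

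**Figure D4:**
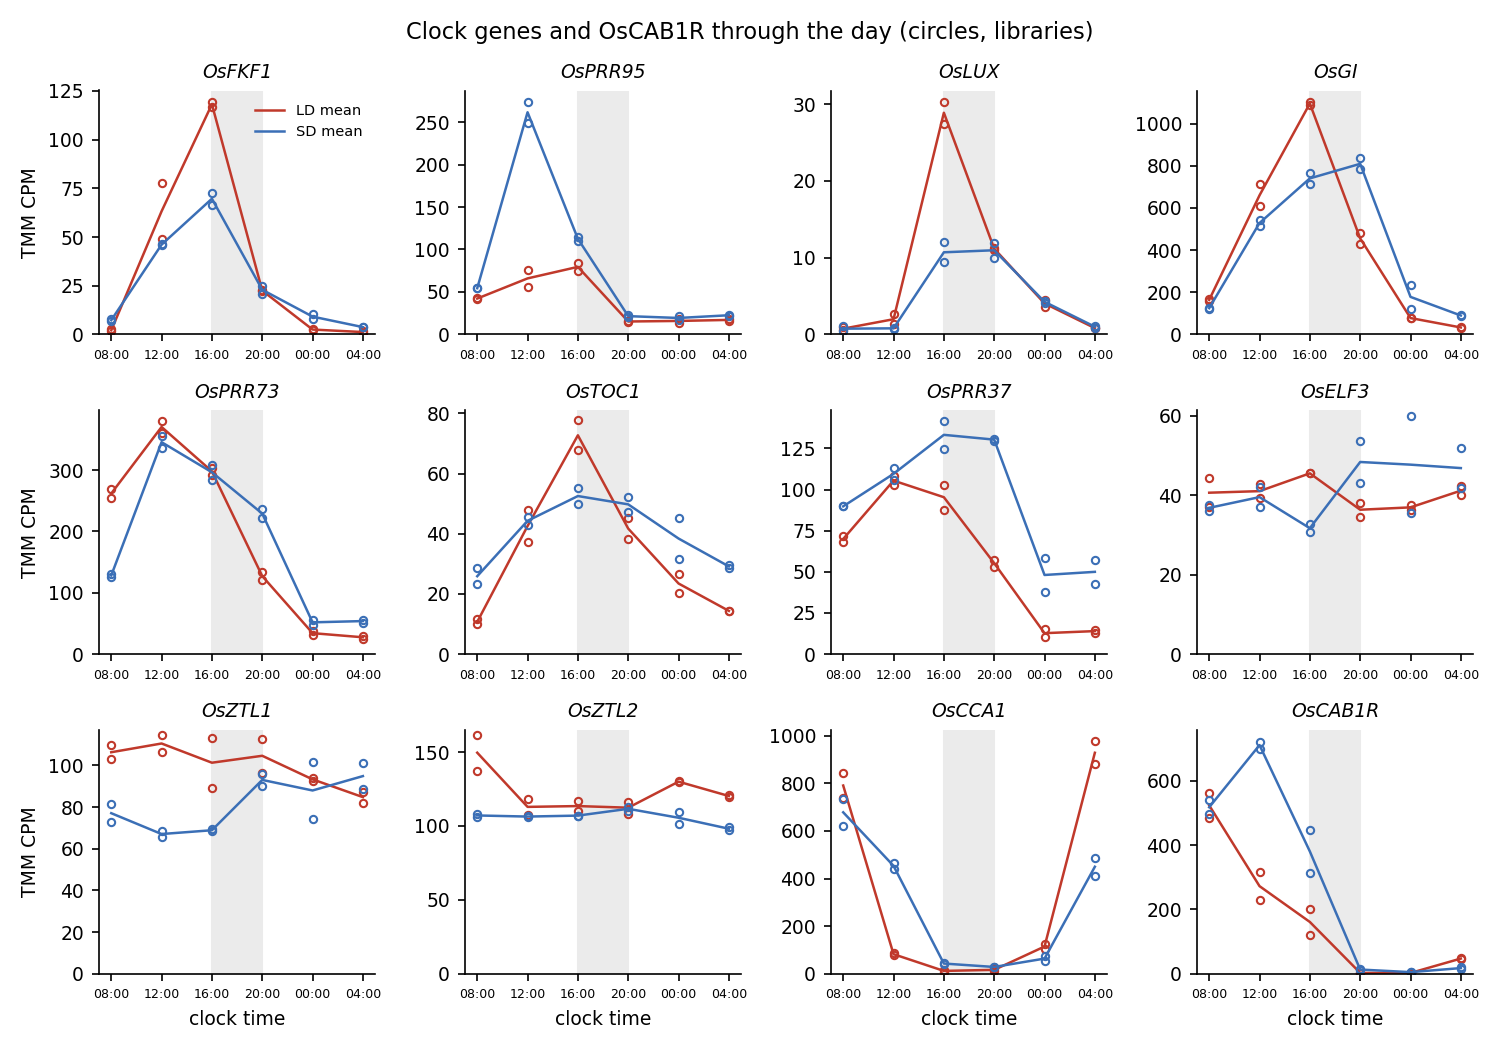
CPM (y axis) of 11 clock genes and *OsCAB1R* by clock time (x axis) in LD (red) and SD (blue); circles are libraries, 2 per group, lines are group means, and the shaded band is the interval from 16:00 to 20:00. Across the band, *OsGI* and *OsLUX* have log2 fold changes of -1.27 and -1.37 in LD and of 0.13 and 0.04 in SD.

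Outside these groups, 69 further loci were down-regulated, with a median log2 fold change of -1.65. Most have no annotation in the sources used here, and over the whole set of 90 this holds for 58. The highest counts at 16:00 among these 58 were those of LOC_Os07g34570, at 1451 and 1435 CPM at 16:00 and 364 and 422 CPM at 20:00 (log2 fold change -1.88 ± 0.22, adjusted p = 2.55e-04), and of LOC_Os08g39140, at 516 and 585 CPM and then 202 and 237 CPM (log2 fold change -1.33 ± 0.24, adjusted p = 0.0163). Both were named after their values were seen. LOC_Os08g39140 averaged 6676 ± 2855 CPM (SD, n = 2) at 12:00, so that most of its drop from the LD maximum came before 16:00. Of the 69, 38 peaked in LD at 16:00, 17 at 12:00, and 12 at 08:00. Their choice as loci lower at 20:00 than at 16:00 favours a peak at 16:00 and excludes one at 20:00. One locus, LOC_Os01g36720, had no counts at 20:00, and against a floor of 3 counts per library it was at least 6.82-fold lower.

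LOC_Os09g35790, which the sheets list under transcription factor activity, was the only locus outside photosynthesis among the 10 deepest falls of annotated genes at 10 CPM or more. It was at 15.4 and 12.2 CPM at 16:00 and at 1.43 and 1.42 CPM at 20:00 (log2 fold change -3.27 ± 0.27, adjusted p = 3.30e-06).

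Up-regulation was rare and rested on small margins. The only annotated gene at 10 CPM or more that rose was *Lsi6* (LOC_Os06g12310), a silicon transporter that in rice moves silicon out of the xylem. It was at 16.6 and 13.9 CPM at 16:00 and at 40.0 and 33.2 CPM at 20:00, without overlap, with a log2 fold change of 1.26 ± 0.26 (adjusted p = 0.0381). Its LD mean was 7.42 CPM at 12:00 and 53.5 CPM at 04:00. LOC_Os12g04980, listed under cell cycle, was at 1.98 and 2.07 CPM and then at 4.99 and 3.38 CPM (log2 fold change 1.05, adjusted p = 0.0451). The other 3 risers, LOC_Os03g02550, LOC_Os01g32259, and LOC_Os08g10310, have no annotation here and were under 8 CPM in the 4 libraries compared, with log2 fold changes of 1.39, 2.37, and 2.40. None of the 5 remained called when any one of the 4 libraries was left out.

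The lists for male fertility, transport, and carbohydrate and lipid metabolism held 0 or 1 call each, beside 0.373% called and 10.4% at an unadjusted p under 0.05 over all loci, and these shares say nothing particular about them. Among 6 hub genes that the study links with male fertility and the gibberellin gene *OsGA20ox3*, none was called by edgeR or DESeq2 and none had an unadjusted p under 0.05. *CSA* (LOC_Os01g16810), a MYB factor controlling sugar supply to the anther, was at 71.4 and 37.2 CPM at 16:00 and at 67.5 and 44.1 CPM at 20:00, and the groups overlapped. *OsUgp1* (LOC_Os09g38030), a UDP-glucose pyrophosphorylase, was at 526 and 478 CPM and then at 451 and 441 CPM (log2 fold change -0.17, adjusted p = 0.724). The log2 fold changes of *OsCesA4* (cellulose synthesis), *CAP1* (an arabinokinase-like protein), *DAO* (auxin oxidation), *OsSWN1* (secondary wall NAC factor), and *OsGA20ox3* (gibberellin synthesis) lay between -0.52 and 0.32.

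Of 672 transport loci tested, *Lsi6* was the only one called, that is 0.149% beside 0.373% of all loci. In this list 77 had an unadjusted p under 0.05, and DESeq2 called 3, beside 167 of all loci. The tonoplast sugar transporter *OsTMT2* (LOC_Os02g13560), which loads sugar into the vacuole, was at 93.0 and 70.9 CPM at 16:00 and at 47.9 and 50.1 CPM at 20:00 (log2 fold change -0.74, adjusted p = 0.0960). A peptide transporter of the POT family, LOC_Os04g59480, was at 8.80 and 8.95 CPM and then at 3.48 and 3.56 CPM (log2 fold change -1.33, adjusted p = 0.0995). Neither passed the threshold. The groups did not overlap in either, but both loci were named for a small adjusted p in these libraries.

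In the carbohydrate list, 0 of 422 loci were called by edgeR, 43 had an unadjusted p under 0.05, and DESeq2 called 3. Over all 25498 loci these counts were 95, 2645, and 167. A glycosyl hydrolase of family 31, LOC_Os01g03950, passed the adjusted p but not the 2-fold limit, at 61.8 and 45.2 CPM at 16:00 and 32.1 and 23.2 CPM at 20:00 (log2 fold change -0.95, adjusted p = 0.0353). A chloroplast glucose-6-phosphate dehydrogenase, LOC_Os03g29950, the entry enzyme of the oxidative pentose phosphate pathway, was at 7.77 and 5.72 CPM and then at 1.56 and 1.96 CPM (log2 fold change -1.94, adjusted p = 0.0646). Among 17 starch loci none was called, 2 had an unadjusted p under 0.05, and DESeq2 called none. The nearest was the beta-amylase LOC_Os10g41550, a starch-degrading enzyme, at 15.2 and 8.46 CPM at 16:00 and 28.5 and 18.9 CPM at 20:00 (log2 fold change 1.0, adjusted p = 0.132). The list of 230 lipid loci had no call, with 21 at an unadjusted p under 0.05 and none called by DESeq2, and squalene synthase (*SQS*, LOC_Os03g59040) had the smallest adjusted p in it, 0.232, at a log2 fold change of 0.44.

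Genes of the ribosome, the protein-making machinery, stood on the other side of 0 without a call. Of 138 loci listed under ribosome, 16 had a negative value, beside 12636 of all 25498 loci. The median log2 fold change was 0.36. An unadjusted p under 0.05 was found for 26, beside 2645 of all loci, but neither edgeR nor DESeq2 called any. The list came from the same sheets as that for photosynthesis, so that it is not independent evidence of a direction either. In the lists of 8 heat shock proteins and 12 aquaporins, 1 locus each had an unadjusted p under 0.05, and in those of 5 B-box and CCT proteins, 7 trehalose phosphate enzymes, 12 enzymes of sucrose synthesis and cleavage, and 4 sugar transporters, none did. The same holds for 51 anther genes of the study, and 2 of its 30 transcription factor hubs had an unadjusted p under 0.05. Neither tool called any member of these lists. The heat shock list holds only loci that the study's sheets annotate as such, and most of the 8 are DnaJ proteins. It thus does not stand for heat shock genes as a whole. The 58 down-regulated loci without annotation could not be placed in any such family here.

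The same interval under SD shows which parts of the LD change were shared. The anthers of the photoperiods differed in their cell type markers: at these hours the 13 pollen markers summed to 659 to 2449 CPM in LD and 63.8 to 609.6 CPM in SD, and the 3 tapetum and wall markers to 0.385 to 10.1 CPM in LD and 84.7 to 909.8 CPM in SD. The part of this difference, and of the doubt over LD clock times, in the contrasts between LD and SD was not tested. In SD anthers 699 loci were called (2.74%), 582 lower at 20:00 (2.28%) and 117 higher (0.459%). This number ranged from 34 to 1300 as each SD library was left out, with 78 and 34 without the first and second SD 16:00 replicate and 1300 and 38 without the first and second SD 20:00 replicate. Of the 90 loci down-regulated in LD, 44 were also down-regulated in SD, which is 48.9% of the LD set and 7.56% of the SD set. A negative value in SD was found in 84 of the 90, beside 53.5% of all loci tested. All 15 photosynthesis loci were called lower in SD, with a median log2 fold change of -2.52 there and -3.14 in LD. *OsCAB1R* went from 314 and 447 CPM at SD 16:00 to 12.2 and 14.5 CPM at SD 20:00 (log2 fold change -4.83). In SD all 15 peaked at 12:00. The 138 ribosome loci had a median log2 fold change of -0.48 in SD, beside 0.36 in LD. Of them, 30 were called lower in SD (21.7%), beside 2.28% of all loci.

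Of the clock genes, *OsPRR95* fell by 2.39 on the log2 scale in both, and *OsFKF1* by 2.39 in LD and 1.60 in SD. *OsGI* was at 715 and 766 CPM at SD 16:00 and at 784 and 836 CPM at SD 20:00, a log2 fold change of 0.13, and *OsLUX* was at 9.39 and 12.0 CPM and then at 9.99 and 11.9 CPM, a log2 fold change of 0.04. The difference between LD and SD was itself tested. It was -1.39 ± 0.30 for *OsGI* (adjusted p = 0.0973), -1.41 ± 0.40 for *OsLUX* (adjusted p = 0.0980), and -0.86 ± 0.19 for *OsPRR73* (adjusted p = 0.0973), so that none passed the threshold over all loci.

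Over all loci, the dusk change differed between LD and SD for 5 (0.0196%), with a more negative change in LD in each. LOC_Os03g27019, without annotation here, was at 90.9 and 96.7 CPM at LD 16:00 and 9.40 and 11.3 CPM at LD 20:00, but at 68.0 and 65.8 CPM and then 42.8 and 52.7 CPM in SD, a difference of -2.70 ± 0.31 on the log2 scale (adjusted p = 0.00205). LOC_Os09g35790 stayed at between 4.38 and 4.81 CPM in the 4 SD libraries, whereas it fell in LD as given above, a difference of -3.37 ± 0.36 (adjusted p = 0.00153). For LOC_Os07g48570 the difference was -1.96 ± 0.26, and for LOC_Os02g28980 -2.22 ± 0.33. LOC_Os03g04150 differed by -2.17 ± 0.29 mainly through a rise in SD, from 6.37 and 7.17 CPM to 18 and 20.5 CPM, while its LD change of -0.66 was not called. The number of such loci depended strongly on the fit. DESeq2 called 909 (640 more positive and 269 more negative in LD), and leaving out the first SD 20:00 replicate gave 1155, whereas leaving out any other of the 8 libraries gave between 2 and 5.

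**Figure D5:**
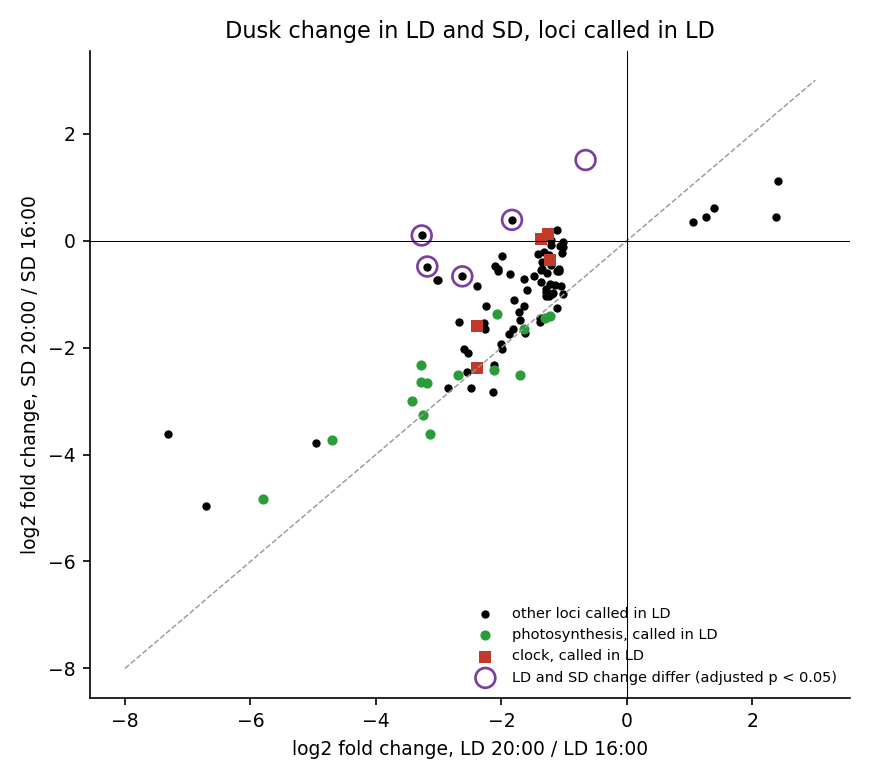
Log2 fold change from 16:00 to 20:00 in SD (y axis) against that in LD (x axis) for the 95 loci called in LD (points; green photosynthesis, red squares clock) and the 5 loci whose change differed between photoperiods (purple circles); the dashed line marks equal change. All 15 photosynthesis loci lie below 0 on both axes, and 4 of the 5 circled loci were called in LD.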

How the data were processed

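The authors sequenced anther RNA on the Ion Proton platform, removed low-quality reads, mapped the rest with MapSplice to the Nipponbare genome of the MSU annotation, and deposited raw read counts per locus for 55986 loci, without normalization. The counting tool, use of strand, and treatment of reads shared by near-identical loci are not given in the sources used here, so that levels of light-harvesting family members carry that uncertainty. LD column totals follow the mapped reads that the study's sequencing summary lists for the preceding collection, and SD totals their own entries. Which is shifted could not be settled, and columns were used as labelled. The deposited design text describes LD as hours of dark, and the growth protocol was followed.

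All 24 libraries entered one edgeR 4.0.16 fit (R 4.3.3) of 12 groups, with filterByExpr, TMM, and the quasi-likelihood F-test, Benjamini-Hochberg adjustment over all 25498 loci, and calls at an adjusted p under 0.05 and at least 2-fold. The SE was taken from the fold change and its F statistic. Nothing in the labels says whether replicates came from separate plots, so that p-values measure the spread between libraries. Alternatives were DESeq2 1.42.0, other normalizations, filters, thresholds, and sample sets, a replicate block, and leaving out libraries. The script was tested on simulated counts. It called 40% of the genes given a 2-fold change, 84% at 3-fold, 86% at 4-fold, and 94% at 8-fold, and 14 unchanged genes. A list without a call can thus hold changes near 2-fold.

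Members and lists were chosen with earlier results of these data known, and the Gene Ontology lists and DESeq2 on only the libraries compared were added after seeing the data. Gene names and terms came from the study's text and sheets, whose term cells are shortened. Genes named were the clock list and *OsCAB1R*, the 10 largest annotated changes in each direction at 10 CPM or more, up to 4 members of each list by adjusted p, the male fertility genes, and the loci that differed between photoperiods. Promoter motifs and sequences were not analysed here.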

Additional observations from a re-analysis of the deposited data

Results flagged for a closer look

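The change from 16:00 to 20:00 differed between LD and SD, by a test of the difference itself, for 5 loci. On the log2 scale, LD minus SD, the difference was -3.37 for LOC_Os09g35790, -2.70 for LOC_Os03g27019, -1.96 for LOC_Os07g48570, -2.17 for LOC_Os03g04150, and -2.22 for LOC_Os02g28980. The first 2 kept an adjusted p under 0.05 without any one of the 8 libraries, and the other 3 did not. Groups of 2 libraries are too small to test for single deviating libraries.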

How the results depend on the processing

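Each group held 2 libraries, which limits how well the spread is known. All 95 loci called in LD kept their direction under every alternative in which they were tested, but their number of 95 became 6 on only the 4 libraries compared, where 2 residual degrees of freedom remain, 281 with every locus of at least 1 count, 21 against a 2-fold null, 167 with DESeq2, 186 with DESeq2 on only those libraries, and 30 to 74 with each library left out. It was 88 with the replicate number as a block, where 87 of the 95 were called and *OsLUX* (adjusted p = 0.0603) and *Lsi6* (adjusted p = 0.0584) were not. The deviations of same-numbered libraries correlated across genes at 0.601 in LD and -0.0782 in SD, and the labels do not say that a number marks a shared batch.

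Clock calls, 5 as reported, were 2 on the 4 libraries, 2 against the 2-fold null, and 3 to 4 with each library left out. Photosynthesis calls, 15, were 0, 9, and 10 to 17 in the same order. For SD the number was 699, and 50 on the 4 SD libraries, 1930 with every locus, 1818 without a fold limit, 16 against the 2-fold null, 1057 with DESeq2, and 34 to 1300 with each library left out. Without TMM the SD calls were 266 higher and 440 lower, beside 117 and 582. For the difference between photoperiods the number was 5, and 442 on the 8 libraries, 2343 with every locus, 2 against the 2-fold null, 909 with DESeq2, 1196 with DESeq2 on the 8 libraries, and 2 to 1155 with each library left out.

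Small values not called changed sign in single settings. *OsZTL1* ranged from -0.151 to 0.214 with each library left out. *OsZTL2* was 0.00766 in the 12 LD libraries and 0.0308 without TMM, and ranged from -0.0886 to 0.0102 with each library left out. These ranges were -0.0704 to 0.836 for *OsCCA1*, -0.37 to 0.549 for *CSA*, -0.709 to 0.0554 for *OsCesA4*, -0.172 to 0.258 for *CAP1*, and -0.532 to 0.206 for *OsSWN1*. The cause was not tested.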
